A study of Homo sapiens with 6 samples.

Results

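The 9 genes described here encode complement components (C3, C5 and CFP), the anaphylatoxin receptors C3AR1 and C5AR1, the complement receptor CR1, and the membrane regulators CD46, CD55 and CD59. They were chosen by name from the 26410 rows of the deposited count table, and all 9 were found. The choice was made with the contrast between PHF19-silenced and control cells already known, so the members' changes in that contrast are given as a description, with standard errors and no p-value, and counts of members past a threshold support nothing. P-values are given only for genes outside the 9, by an edgeR quasi-likelihood fit over all 13014 genes that passed an expression filter. They include PHF19's neighbours, other complement genes, relatives of the members, cell type markers and genes of the anchor that CD55 and CD59 carry. The gene lists were also chosen with earlier results of these data known, and neighbours and relatives were added after their values were seen. Their p-values are therefore not tests of a choice made beforehand.

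RNA was sequenced from Kasumi-1, an established human acute myeloid leukaemia cell line carrying the RUNX1::RUNX1T1 fusion. Cells of both groups received a lentiviral short hairpin vector with a GFP and puromycin cassette and were selected with 2 µg/ml puromycin from 48 h onward for at least 24 h. The control group (3 libraries) received a scrambled hairpin, although its treatment label reads WT, and the shPHF19 group (3 libraries) received a hairpin against PHF19, an accessory subunit of Polycomb repressive complex 2. The sources used here name a single PHF19 hairpin construct and do not say whether the replicates were separate cultures, so the errors and p-values describe the scatter of these libraries, which may be technical.

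Complement is a cascade of plasma and cell-derived proteins that marks surfaces for phagocytosis and can puncture membranes. Initiating complexes or spontaneous turnover build convertases that cut C3 and then C5. The small fragments C3a and C5a attract and activate myeloid cells through C3AR1 and C5AR1, the large fragment C3b coats the surface and is bound by CR1, and C5b starts the membrane attack complex. CFP, or properdin, stabilises the convertase of the alternative pathway, whereas CD46, CD55 and CD59 protect a cell's own membrane at the steps of C3b cleavage, convertase decay and pore assembly. Most circulating C3 is made by the liver, and monocytes and macrophages also make C3, C5 and properdin and carry the anaphylatoxin receptors.

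Total counts per library ran from 14229878 to 16615143, and a floor of 3 counts, as much as a count of 0 could hide, corresponded to 0.177 to 0.223 CPM (counts scaled to library size, with TMM factors). PHF19 itself stood at 168, 199 and 189 CPM in control replicates 1, 2 and 3 and at 41.1, 36.9 and 33.0 CPM in shPHF19 replicates 1, 2 and 3, so the transcript was lower in every library of the hairpin group. The line's own markers were present, with means of 188 and 146 CPM for RUNX1T1 and 2939 and 3291 CPM for KIT in control and shPHF19 cells, while CD38 had at most 6 counts in any library. The PHF19 hairpin libraries differed from controls across most of the transcriptome: 60.2% of tested genes passed an adjusted p of 0.05 (edgeR), 29.4% higher and 30.9% lower. The median log2 fold change of all tested genes was -0.03 with TMM scaling and -0.24 when only library totals were used, which gave 2590 genes higher and 5624 lower in place of 3820 and 4015.

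In shPHF19 cells the complement components C3 and C5 and the receptors C3AR1 and C5AR1 were lower in every library than in any control library. The membrane regulators were split, with CD59 and CD46 higher and CD55 lower. The fitted log2 fold changes ran from -6.47 for C3 to 0.71 for CD59. Of the 9 members 8 passed the expression filter, and CR1 did not. Among these 8, 5 were past the threshold as lower and 2 as higher, beside the background of 30.9% lower and 29.4% higher in all genes, and CFP was not past it. The values of both groups did not overlap for 7 of the 8, 5 lower and 2 higher, where the same held for 63.5% of all tested genes (32.6% lower and 30.9% higher). Because this contrast was known when the members were chosen, nothing is read from these counts.

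**Figure D1:**
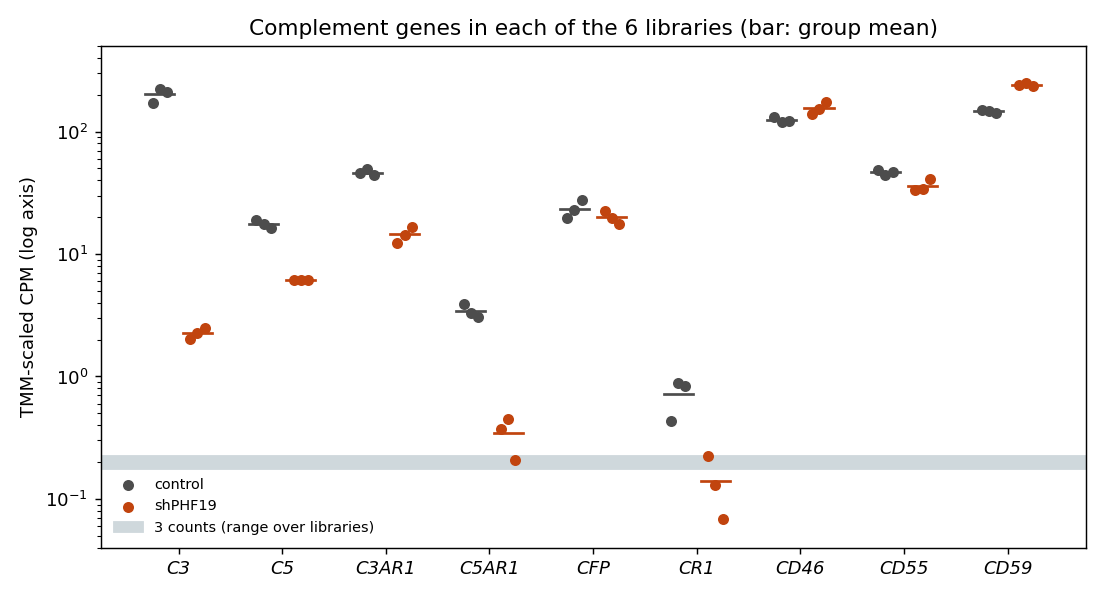
TMM-scaled CPM (log axis) of the 9 complement genes in each library, with control libraries in grey and shPHF19 libraries in orange. Points are libraries, horizontal bars are group means and the grey band is the level of 3 counts, 0.177 to 0.223 CPM. C3 lies near 200 CPM in control and near 2 CPM in shPHF19 libraries, CFP overlaps between groups, and CR1 lies in or under the band in shPHF19 libraries.

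C3 is the component on which all activation pathways converge. Its level was 170, 221 and 212 CPM in the control libraries and 2.00, 2.27 and 2.48 CPM in the shPHF19 libraries. No value of either group came near the other, and the spread within a group was small beside the gap. The means were 201 ± 26.9 and 2.25 ± 0.237 CPM (SD, n = 3), and the log2 fold change of -6.47 (SE 0.14) was the 9th lowest of the 13014 tested genes. The raw counts summed to 9790 for the control group and 98 for the shPHF19 group, so the low values still rest on well over the floor of 3 counts per library. The ratio of these sums after scaling was 89.2, and its exact (Clopper-Pearson) 95% bounds were 73.1 and 110, which cover counting error only.

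C3 is annotated at chr19:6677704-6730562, minus strand (GRCh38, GENCODE 29). Its annotated span overlaps that of GPR108 on the same strand by 649 bases, but the annotated exons of both genes share 0 bases. GPR108, a G protein-coupled receptor family gene, stood at 82.8 CPM in control and 52.4 CPM in shPHF19 cells and fell by 0.66 on the log2 scale (edgeR adjusted p = 6.32e-08), a much smaller difference than that of C3. None of the other 8 members overlapped the span of another counted gene whose symbol is in that annotation.

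Among tested genes at 5 CPM or more on average, those whose centred log2 CPM profile over the 6 libraries was closest to that of C3 were KLHDC7B, TM6SF1 and DDIT4, with root mean square differences of 0.49, 0.87 and 0.92 log2 units. Mean levels in control and shPHF19 cells were 22.4 and 0.0904 CPM for KLHDC7B, 99.8 and 3.90 CPM for TM6SF1, and 353 and 16.7 CPM for DDIT4, which restrains mTORC1. The KLHDC7B level in shPHF19 cells rests on 0, 1 and 3 counts and has a mean under the floor of 3 counts, so its size is not determined at this depth. With 2 groups of 3 libraries, likeness to C3 is mainly a matter of the size of the difference between groups.

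C5 is cut into the strongest anaphylatoxin, C5a, and into C5b, the seed of the membrane attack complex. It was measured at 18.9, 17.6 and 16.4 CPM in control libraries and at 6.16, 6.16 and 6.13 CPM in shPHF19 libraries. The 3 shPHF19 values were almost equal, and all lay below the control values. The means of 17.6 ± 1.24 and 6.15 ± 0.0184 CPM (SD, n = 3) gave a log2 fold change of -1.52 (SE 0.17), which corresponds to a level 2.86-fold lower.

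C5 is annotated at chr9:120952335-121050276, minus strand (GRCh38), close to the targeted gene itself. PHF19 spans 120855652 to 120894896 on the same strand, and the gap between both spans is 57.4 kb. TRAF1, a signalling adaptor of tumour necrosis factor receptors, lies in this gap from 120902393 to 120929173, also on the minus strand. TRAF1 stood at 30.3, 37.0 and 34.4 CPM in control libraries and at 5.94, 4.92 and 3.92 CPM in shPHF19 libraries, and it fell by 2.78 on the log2 scale (SE 0.16, edgeR adjusted p = 4.21e-20). PHF19, TRAF1 and C5 are thus consecutive counted genes, and each was more than 2-fold lower, which 11.4% of all tested genes were. PHF19 is the target of the hairpin, C5 was chosen with this contrast known, and TRAF1 was added after its values were seen. Nothing is therefore read from this run of genes. The hairpin sequence was not analysed here, so whether it has a part in the TRAF1 and C5 levels was not tested.

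The genes on either side moved less. PSMD5, a proteasome assembly chaperone gene on the far side of PHF19, differed by 0.01 on the log2 scale (edgeR adjusted p = 0.929), and CNTRL, a centrosomal protein gene on the opposite strand beyond the start of C5, by 0.10 (edgeR adjusted p = 0.372). RAB14 did not pass either, at -0.09 (edgeR adjusted p = 0.365), but passed as lower with library totals only (-0.29) and with upper-quartile factors. Farther out, FBXW2 (-0.52), MEGF9 (-0.69) and the actin-severing protein gene GSN (-0.69) fell (edgeR adjusted p = 9.69e-07, 1.06e-06 and 6.25e-10). These are all 9 counted genes within 200 kb of the interval from PHF19 to C5, and this window was chosen after the values were seen.

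**Figure D2:**
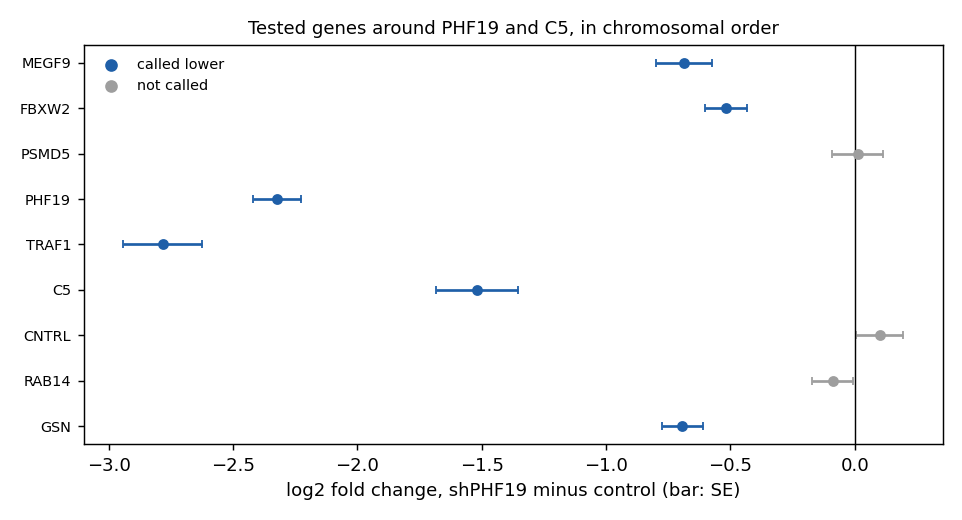
Log2 fold change (shPHF19 minus control, bar: SE) of the 9 tested genes around PHF19 and C5, from top to bottom in the order of their start positions on chromosome 9. PHF19, TRAF1 and C5 lie next to each other at -2.32, -2.78 and -1.52, between PSMD5 and CNTRL, which lie near 0.

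C3AR1 is the receptor for C3a. Its level was 45.6, 49.0 and 43.9 CPM in control libraries and 12.2, 14.4 and 16.7 CPM in shPHF19 libraries. All control values were more than 2-fold above all shPHF19 values. The means were 46.2 ± 2.58 and 14.5 ± 2.24 CPM (SD, n = 3), with a log2 fold change of -1.67 (SE 0.13). C3AR1 is annotated at chr12:8058302-8066471, minus strand (GRCh38).

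C5AR1 is the main signalling receptor for C5a. It was less abundant, at 3.87, 3.30 and 3.05 CPM in control libraries and 0.371, 0.454 and 0.207 CPM in shPHF19 libraries. These stand for 63, 56 and 47 counts against 5, 7 and 3, so the shPHF19 level reached the floor of 3 counts in 1 library. The groups did not overlap, and the log2 fold change was -3.27 (SE 0.45). The ratio of the summed counts, 166 in control and 15 in shPHF19 libraries, was 9.88 after scaling (exact 95% bounds 5.82 and 18). C5AR1 is annotated at chr19:47290023-47322066, plus strand (GRCh38).

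C5AR2, the other receptor that binds C5a, was outside the 9 and fell as well. Its values were 7.07, 8.60 and 11.9 CPM in control libraries and 4.45, 5.38 and 4.61 CPM in shPHF19 libraries, a log2 fold change of -0.92 (SE 0.21, edgeR adjusted p = 0.00016). The groups did not overlap, and control replicate 3 was the highest. All 3 receptors for C3a and C5a were therefore at lower levels in the hairpin group. Among 9 listed relatives of these receptors 3 passed the filter, and 2 of them fell, a share (66.7%) near the 60.2% of all genes that were called: LTB4R, a receptor for leukotriene B4 (-0.41, edgeR adjusted p = 0.00322), and PTGDR2, a receptor for prostaglandin D2 (-2.77, edgeR adjusted p = 0.000108). PTGDR2 rests on 27, 26 and 18 counts in control and 3, 5 and 1 counts in shPHF19 libraries, so its lower level lies near the floor. The formyl peptide receptor genes FPR1 and FPR2 held at most 19 and 9 counts in any library and were not tested.

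CR1 binds C3b and C4b on blood cells and speeds the decay of convertases. It was close to the limit of detection, with 7, 15 and 13 counts in control and 3, 2 and 1 counts in shPHF19 libraries. The levels were 0.430, 0.884 and 0.843 CPM against 0.223, 0.130 and 0.0689 CPM, which do not overlap, but the shPHF19 values lie at or under the floor of 3 counts. The summed counts of 35 and 6 gave a scaled ratio of 5.21 (exact 95% bounds 2.17 and 15.1). CR1 contains long internal repeats and has a near copy, CR1L, so its value is uncertain to the extent that reads fit several places.

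Other genes listed as complement receptors moved in both directions. All 7 that passed the filter, out of 8 listed, passed the test, where 60.2% of all genes did: 4 fell, counting C5AR2, and 3 rose. The list is broad, since CD93 and C1QBP are on it for a link to C1q, which is not a cleavage fragment. ITGAM and ITGAX, the alpha chains of complement receptors 3 and 4, were at 30.9 to 36.5 and 29.3 to 36.1 CPM in control libraries and at 3.63 to 3.92 and 4.83 to 6.35 CPM in shPHF19 libraries, and both fell (log2 fold changes -3.17 and -2.53, edgeR adjusted p = 3.31e-22 and 5.68e-19). Their shared beta chain ITGB2 fell from 188 ± 15.9 to 121 ± 11.1 CPM (-0.64, edgeR adjusted p = 2.33e-08), so the alpha chains were lower by more than their partner. VSIG4, a macrophage receptor for C3b, rose from 87.4 ± 1.16 to 121 ± 8.49 CPM (0.47, edgeR adjusted p = 1.12e-05). CD93 rose from 56.3 ± 4.33 to 103 ± 4.90 CPM (0.87, edgeR adjusted p = 3.88e-11), and C1QBP, a mainly mitochondrial protein that binds C1q, rose from 102 ± 4.91 to 205 ± 1.52 CPM (1.01, edgeR adjusted p = 1.65e-14). CR2, the receptor for C3d on B cells, had no count in any library.

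Most tested markers of monocytes and macrophages were lower in the same libraries in which C3, C3AR1 and C5AR1 were lower. Of 14 listed markers 8 passed the filter, with 6 lower, 0 higher and 2 that missed the threshold (75% called, beside 60.2% of all genes). The 2 were CSF1R (-0.26, edgeR adjusted p = 0.162) and VCAN (0.79, edgeR adjusted p = 0.154). VCAN was higher in every shPHF19 library than in any control library, and it passed as higher without control replicate 1. The 14 markers summed to 238.9 to 254.3 CPM in control and 98.87 to 100.3 CPM in shPHF19 libraries. The defining marker CD14 had at most 3 counts in any library, and CD163, MARCO and FCGR3A had 8 or fewer. Of 13 listed neutrophil and granule markers 6 passed the filter, and 5 of these were higher, beside 29.4% of all genes. The 5 were ELANE, PRTN3, AZU1, CTSG and CSF3R. LTF, CAMP, LCN2, MMP8 and MMP9 had at most 13 counts in any library and were not tested. The 13 markers summed to 281 to 310 CPM in control and 841 to 966 CPM in shPHF19 libraries. The part of these differences in the complement results was not tested, and in bulk RNA fewer cells of a kind and less RNA per cell cannot be told apart. Hepatocyte and stromal markers, listed because liver is the main source of C3, summed to 3.43 to 6.01 CPM over all 6 libraries, and ALB had at most 14 counts.

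CD59 blocks the assembly of the membrane attack complex and is held at the membrane by a glycosylphosphatidylinositol (GPI) anchor. It was measured at 150, 148 and 143 CPM in control libraries and at 238, 247 and 235 CPM in shPHF19 libraries. Every shPHF19 library was above every control library, and the values within each group lay close together. The means were 147 ± 3.85 and 240 ± 6.27 CPM (SD, n = 3), a log2 fold change of 0.71 (SE 0.082) or 1.63-fold. CD59 is annotated at chr11:33703010-33736491, minus strand (GRCh38).

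CD46 is a transmembrane cofactor for the cleavage of C3b and C4b. Its values were 131, 119 and 122 CPM in control and 140, 153 and 174 CPM in shPHF19 libraries. The groups were separate, but the lowest shPHF19 library was only slightly above the highest control library. The means were 124 ± 6.72 and 156 ± 17.0 CPM (SD, n = 3), with a log2 fold change of 0.33 (SE 0.088), and this small difference shrank to 0.13 when only library totals were used for scaling.

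CD55 speeds the decay of convertases and, like CD59, carries a GPI anchor. It stood at 48.5, 44.0 and 46.7 CPM in control and at 33.4, 33.7 and 40.7 CPM in shPHF19 libraries. All shPHF19 values were below all control values, with replicate 3 the closest. The means were 46.4 ± 2.27 and 35.9 ± 4.12 CPM (SD, n = 3), and the log2 fold change was -0.37 (SE 0.11).

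CD55, CR1 and CD46 belong to one cluster of regulator genes and lie on the plus strand of chromosome 1 (GRCh38). The stretch from the start of CD55 at 207321376 to the end of CD46 at 207795513 is 474.1 kb long and is not the whole cluster. CR1 lies between them, from 207496147 to 207641765. Their differences had different signs within this stretch: CD55 was lower, CR1 was near the floor and CD46 was higher. The progenitor surface marker CD34, which lies beyond CD46 within 200 kb of the end of that gene, rose from 357 ± 11.2 to 830 ± 21.8 CPM (log2 fold change 1.22, edgeR adjusted p = 4.53e-18).

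CFP, which encodes properdin, was the member with overlapping groups. It was measured at 19.8, 23.0 and 27.4 CPM in control and at 22.6, 19.6 and 17.6 CPM in shPHF19 libraries. The means of 23.4 ± 3.79 and 19.9 ± 2.52 CPM (SD, n = 3) differed by less than the spread of the control libraries, and the log2 fold change was -0.23 (SE 0.14). Without control replicate 1, the lowest of the control libraries, it was -0.34. CFP is annotated at chrX:47623172-47630305, minus strand (GRCh38).

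Scaled to exon length, the order of the 9 genes changed mostly through C3. In control cells C3 was highest, at 38.2 CPM per kb of exon (32.4 to 42.0 over the libraries), with CD46 next at 36.7 (35.2 to 39.0), and these 2 overlapped. C3AR1 (22.1) and CD59 (17.9) followed, then CFP (12.7) and CD55 (11.7), whose ranges overlapped, and then C5 (3.22), C5AR1 (1.47) and CR1 (0.0723). In shPHF19 cells CD46 was first at 46.2 CPM per kb and CD59 second at 29.2. CFP (10.8) and CD55 (9.02) overlapped again, C3AR1 stood at 6.92, and C3 was 7th at 0.428 CPM per kb, below C5 at 1.13. Exon length was the union over coding transcripts of the basic annotation, and with the longest coding transcript instead CD55 ranked just above CFP in both groups and the other ranks were unchanged.

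**Figure D3:**
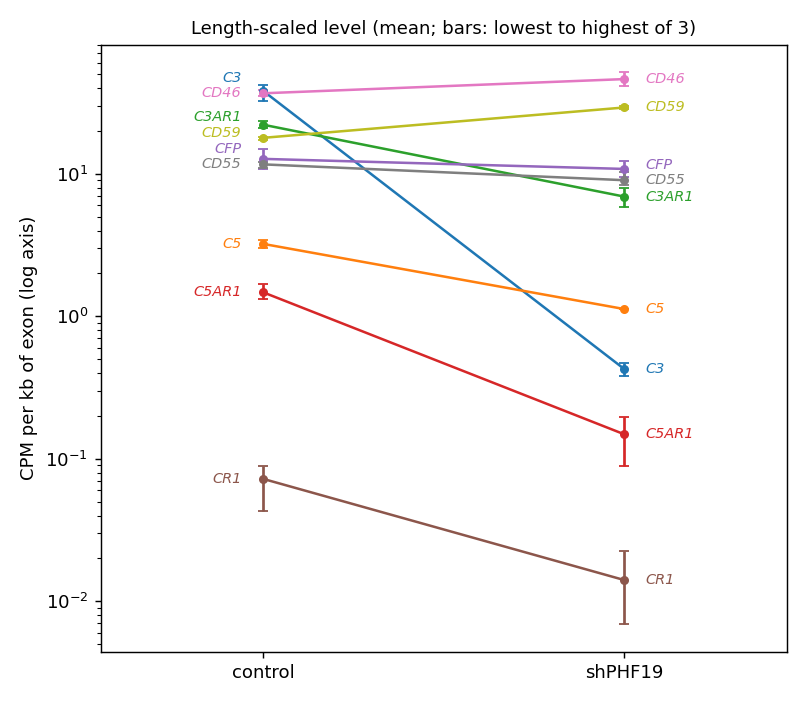
Length-scaled level (CPM per kb of exon, log axis) of the 9 genes in control and shPHF19 cells. Points are means of 3 libraries and bars run from the lowest to the highest library. C3 is first in control cells at 38.2 and 7th in shPHF19 cells at 0.428, where CD46 and CD59 hold the first 2 places.

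The balance among the 9 transcripts can also be read within each library, where no scaling between libraries enters. C3 made up 28.9%, 35.3% and 34.5% of the members' counts in control libraries and 0.440%, 0.476% and 0.503% in shPHF19 libraries. CD59 made up 24.1 ± 1.19% in control and 50.6 ± 2.56% in shPHF19 libraries (SD, n = 3). The share of CD55 was 7.62 ± 0.599% and 7.56 ± 0.624%, so CD55 and the members' total were lower by about the same proportion.

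Upstream sequences are shown for the members whose 250 bases before a RefSeq start hold no annotated exon and which represent a lower, an overlapping and a higher transcript. The set of RefSeq promoters used here (GRCh38.p14) held an entry for 8 of the 9 members. C3 had no entry in this set, so its CpG count and motif matches are not given. Polycomb repressive complex 2 is known to act mainly at CpG-rich promoters, so the CpG count of each window is given. Capitals mark matches, on either strand, to 5 motifs of myeloid and stress-responsive factors: C/EBP (TTGCNNAA), C/EBP-ATF (TGATGNAA), AP-1 (TGANTCA), PU.1 (GAGGAA) and RUNX (TGTGGT). CFP and CD46 have more than one RefSeq start, and one window of each is shown.
C5AR1, chr19:47309611-47309860, plus strand: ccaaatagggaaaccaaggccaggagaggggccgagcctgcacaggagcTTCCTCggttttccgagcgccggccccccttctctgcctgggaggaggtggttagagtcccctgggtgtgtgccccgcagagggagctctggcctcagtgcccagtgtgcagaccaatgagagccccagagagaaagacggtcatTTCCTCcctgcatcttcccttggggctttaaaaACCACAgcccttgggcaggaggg
CFP, chrX:47630306-47630555, minus strand: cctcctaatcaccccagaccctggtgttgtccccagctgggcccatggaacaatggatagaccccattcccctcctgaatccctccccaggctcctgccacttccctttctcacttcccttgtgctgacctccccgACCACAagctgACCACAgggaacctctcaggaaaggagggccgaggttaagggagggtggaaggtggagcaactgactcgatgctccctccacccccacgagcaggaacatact
CD46, chr1:207751788-207752037, plus strand: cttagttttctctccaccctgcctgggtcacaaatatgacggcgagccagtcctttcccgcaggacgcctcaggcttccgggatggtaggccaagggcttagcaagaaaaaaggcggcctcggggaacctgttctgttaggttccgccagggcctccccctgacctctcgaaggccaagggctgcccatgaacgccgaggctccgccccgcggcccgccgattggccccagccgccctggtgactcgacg

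The C5AR1 window lies inside the annotated span of the gene, in an intron, and the other 2 windows lie outside annotated genes. The C5AR1 window holds 7 CpG dinucleotides, 2 matches to the PU.1 motif and 1 to the RUNX motif. The CFP window holds 4 CpG dinucleotides and 2 RUNX matches. The other CFP window, which overlaps a CFP exon and is not shown, holds 4 CpG, 2 PU.1 matches and no RUNX match. The CD46 window holds 19 CpG dinucleotides and no match to the 5 motifs. The other CD46 window holds 21 CpG and no match either. The other members with a RefSeq entry have windows that overlap annotated exons and are not shown. Their windows hold 28 and 0 CpG for C5, 1 for C3AR1 and 12 for CR1. For CD55 the count is 12, and for the windows of CD59 it is 12, 18, 1 and 1. Motif matches in these windows were 1 PU.1 for C5, 1 AP-1 for C3AR1, and 1 RUNX each for CR1 and CD55. CD59 had 2 C/EBP matches in one window, and 2 AP-1 and 1 RUNX matches in another. A relation between CpG count and direction of change was not tested. Over 35116 RefSeq windows of this length the median was 11 CpG (quartiles 3 and 23), 23.6% held the PU.1 motif and 11% the RUNX motif. The C/EBP motif was in 9.05% and the AP-1 motif in 6.57%. Motif matches are descriptions of these letters and not measured binding sites.

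Most of the listed complement genes outside the 9 did not pass the expression filter. Of 51 listed, 13 had no count in any library and 16 passed the filter. Among the 16, 8 rose, 4 fell and 4 missed the threshold (75% called, beside 60.2% of all genes), and their median log2 fold change was 0.61 beside -0.03 for all genes. The lists of other genes were drawn up by function, with earlier results of these data known.

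Among the initiators, C1S, a serine protease that acts in C1, rose from 7.59 ± 1.19 to 16.1 ± 0.903 CPM (1.09 on the log2 scale, edgeR adjusted p = 2.01e-07), while its partner C1R, at 2.31 and 1.91 CPM, did not pass (-0.28, edgeR adjusted p = 0.518). FCN1, which encodes ficolin-1, a recognition protein of the lectin pathway, had 0, 0 and 1 counts in control and 12, 16 and 15 counts in shPHF19 libraries. It was almost absent from control cells and low in shPHF19 cells, with a count ratio of 48.2 (exact 95% bounds 8.20 and 1950, edgeR adjusted p = 1.51e-05). MASP2, a protease of the same pathway, was higher by 0.75 on the log2 scale (edgeR adjusted p = 0.0482), and this call was lost in 10 of 14 alternative settings (adjusted p 0.0286 to 0.221 over all).

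CFD, or factor D, the protease that activates the alternative pathway, was the most abundant of the initiating proteases. Its values were 25.2, 29.3 and 24.7 CPM in control and 67.0, 65.1 and 62.6 CPM in shPHF19 libraries. Every shPHF19 value was more than 2-fold above every control value, and the log2 fold change was 1.30 (SE 0.11, edgeR adjusted p = 1.44e-14). Its substrate, factor B (CFB), had 2 to 5 counts per library and was not tested. The alternative pathway genes measured here thus differed from each other: CFD rose, CFP overlapped between groups and C3 was lower in every shPHF19 library.

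No terminal component gene from C6 to C9 passed the filter, and the highest count among the 6 was 19, for C8G. Of 13 soluble regulators 1 passed the filter, CLU, or clusterin, which did not pass the test (-0.66, edgeR adjusted p = 0.144). Among other membrane regulators only CSMD3 passed the filter, and it rose from 3.89 ± 0.534 to 9.04 ± 1.71 CPM (1.21, edgeR adjusted p = 3.07e-06). C4A and C4B, near-identical genes for the C4 component related to C3 and C5, had no counts, and reads that fit both may not have been assigned to either. CD109, another relative of C3 in the alpha-2-macroglobulin family, fell from 62.9 to 8.43 CPM (-2.89, edgeR adjusted p = 2.78e-21). It was the 1 gene called of 3 that passed the filter, out of 5 such relatives listed (33.3%, beside 60.2% of all genes). A2M and A2ML1 did not pass (-1.18 and -1.23, edgeR adjusted p = 0.0592 and 0.0602).

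**Figure D4:**
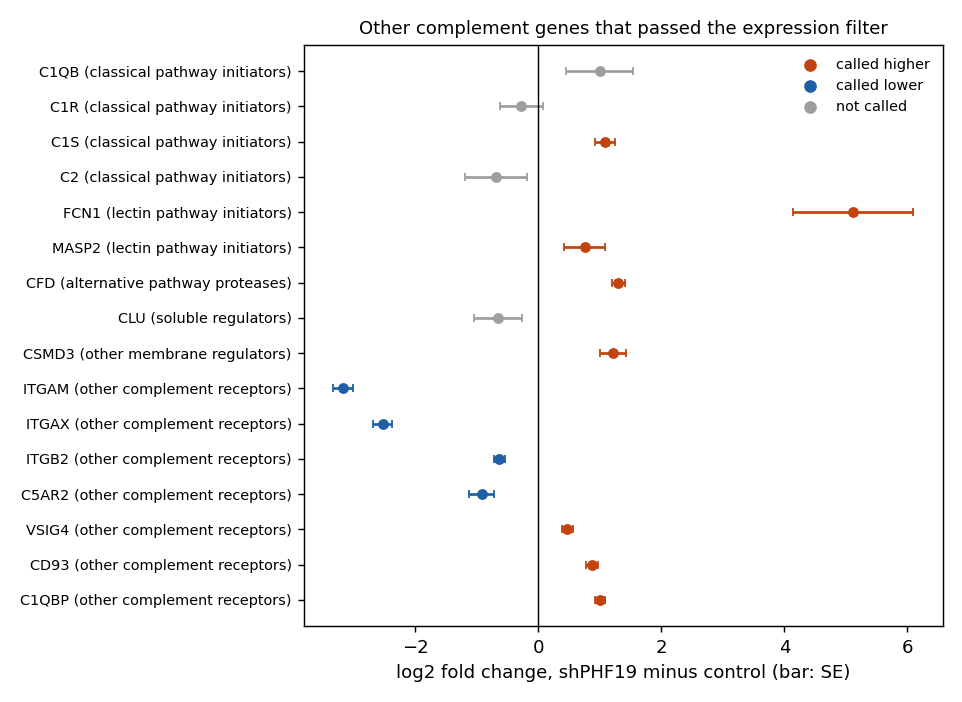
Log2 fold change (shPHF19 minus control, bar: SE) of the 16 complement genes outside the 9 that passed the expression filter, with the role of each in parentheses. Orange marks genes called higher, blue lower and grey not called. FCN1 at 5.12 rests on 1 control count, CFD and C1S lie to the right of 0, and ITGAM and ITGAX lie farthest to the left.

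CD55 and CD59 need a GPI anchor to reach the membrane, and among the genes that build and attach it more rose than fell in shPHF19 cells. Of 28 listed 27 passed the filter, with 14 higher, 6 lower and 7 short of the threshold (74.1% called, beside 60.2% of all genes). The median log2 fold change was 0.32 beside -0.03. With library totals only, 9 rose and 9 fell, so the balance of directions depended on scaling. In the transamidase that attaches the anchor, PIGT rose from 86.2 to 224 CPM (1.38, edgeR adjusted p = 9.33e-18) and PIGS from 123 to 218 CPM (0.82, edgeR adjusted p = 1.31e-11). GPAA1 (0.58) and PIGU (0.43) also rose, the latter not past the threshold with library totals only (0.23) or without control replicate 3, whereas the catalytic subunit PIGK fell (-0.41, edgeR adjusted p = 0.00223). PIGA, which acts at the first step of anchor synthesis, did not pass (0.19, edgeR adjusted p = 0.407). At the ends of the list were PIGT and PIGZ, a mannosyltransferase that fell from 12.8 to 6.52 CPM (-0.97, edgeR adjusted p = 4.8e-06).

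**Figure D5:**
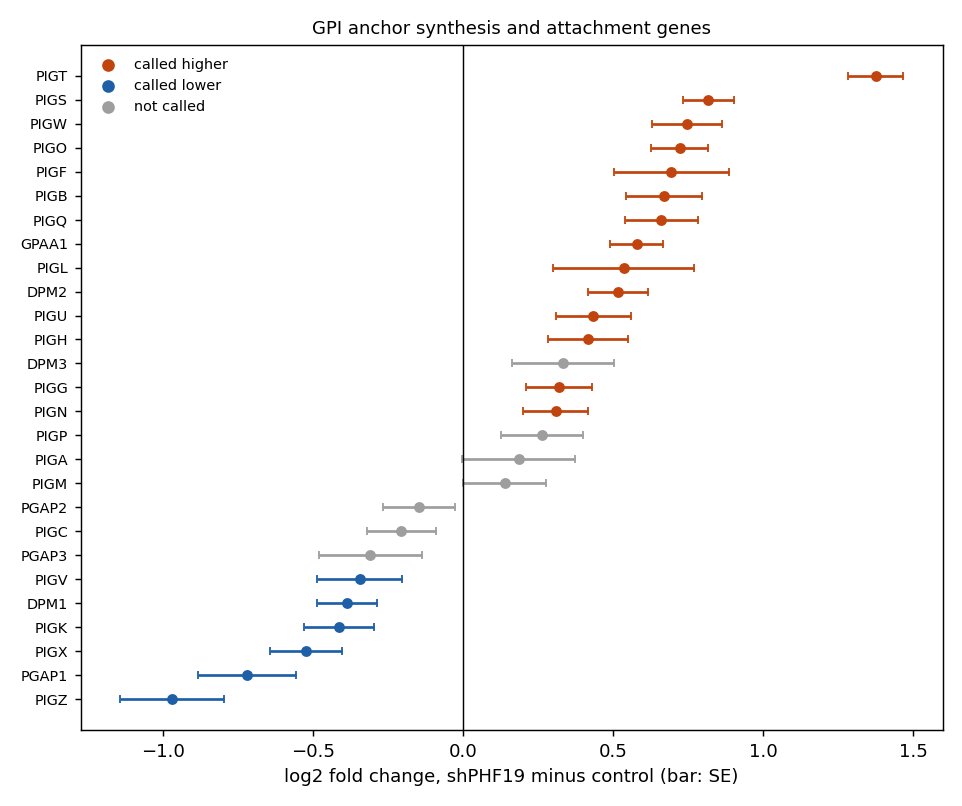
Log2 fold change (shPHF19 minus control, bar: SE) of the 27 tested genes of GPI anchor synthesis and attachment, ordered by value. Orange marks the 14 called higher, blue the 6 called lower and grey the 7 not called, with PIGT at 1.38 and PIGZ at -0.97 at the ends.

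The authors' deposited table of their own comparison lists 7 of the 9 members and leaves out CFP and CR1. In the authors' deposited table the log2 fold changes were -6.45 for C3, -1.46 for C5, -1.63 for C3AR1 and -3.11 for C5AR1. For the membrane regulators the authors' deposited table gives 0.72 for CD59, 0.34 for CD46 and -0.33 for CD55. The signs were the same as in the fit made here, from the same counts.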

How the data were processed

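Raw counts for 26410 gene symbols, deposited by the authors, were used (6991 rows are empty). The submitters' processing notes name HTSeq 0.11.2, HISAT2 2.1.0 and the hg38 build, with no annotation or strand setting. The authors also deposited their own comparison, with mean normalized signal, log2 fold changes and p-values, without naming a tool.

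Differences were fitted with edgeR 4.0.16 (R 4.3.3) on the unmodified counts: filterByExpr, TMM scaling, group as the only term, robust quasi-likelihood F test, and Benjamini-Hochberg adjustment over all 13014 genes (threshold 0.05). CPM were computed here. A standard error is the log2 fold change divided by the square root of F. The fit was tested on simulated data in which few genes changed, unlike these data, so that test does not bear on the choice of scaling. The members and gene lists were chosen with earlier results of these data known. Named genes are PHF19, the 9 members, other listed complement genes past the filter, the 3 genes most like C3 (log2 of CPM + 0.5) and overlapping genes. Others (chromosomal neighbours, genes at low counts, relatives of members) were added after their values were seen. The motifs were chosen here, and an NF-kappaB motif, which matched in no member's window, was left out afterwards. Of the listed genes, 2 are not reported here and were taken out of the lists and their counts. Positions, exons and lengths are from GENCODE 29. No library pair within a group agreed within sampling noise (chi-square per degree of freedom 4.63 to 11.7). DESeq2 1.42.0 and limma-voom (limma 3.58.1) were alternatives.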

Additional observations from a re-analysis of the deposited data

How the results depend on the processing

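As a description, of 112 values of the 8 tested members under 14 alternative settings, 108 kept their direction and their side of the threshold, and none changed sign. The exceptions were CD46 with library totals only (0.13, no longer past the threshold) and CFP, past it with library totals only (-0.44), with upper-quartile factors (-0.34) and without control replicate 1 (-0.34). C3 ran from -6.68 to -6.39 over the settings. The number of genes called was 7835, and 7099 to 7759 with 1 library left out. Library totals alone gave 2590 higher and 5624 lower (31.5% higher, in place of 48.8%), and upper-quartile factors gave 40.0% higher. With the replicate number as a block 7307 genes were called. Same-numbered libraries did not deviate together (correlations -0.164, -0.007 and -0.054), and no member changed its call under the block. These correlations use deviations from means of 3 libraries, so they cannot settle whether same-numbered libraries were prepared together. Of 1491 values over the 107 tested genes that are listed or named here, 49 lost and 32 gained a call, and 0 reversed. A change of sign counted as reversed only where the gene was called in the main fit or in the alternative. Some genes that were not called did change sign, such as PSMD5 (0.01, and -0.19 with library totals only). Depth limits CR1, C5AR1, FCN1 and PTGDR2, whose lower group holds 6, 15, 1 and 9 counts. It also limits KLHDC7B, with 0, 1 and 3 counts in the shPHF19 libraries.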
